A study of Mus musculus with 29 samples.

Results

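Young mouse cardiac fibroblasts cultured for 48 h on the substrate named StiffA were compared with freshly isolated young cardiac fibroblasts. The comparison was defined by the sample labels alone and uses 6 of the 29 libraries of the series, 3 cultured and 3 fresh, and every fold below is the cultured level over the fresh level. The study measured bulk RNA by sequencing in young and aged mouse cardiac fibroblasts, fresh or after culture on 4 hydrogel substrates that carry heart extracellular matrix. From knowledge of the study, the substrate names are read as a soft or a stiff gel with matrix from young or aged hearts, so StiffA is a stiff gel with aged matrix, a setting mismatched to young cells. A low input kit was used on 20 ng of RNA per library.

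The other groups used are young cells on SoftY (2 libraries), on StiffY (3) and on SoftA (3), aged cells on StiffA (3) and fresh aged cells (3). Every cultured group was kept for 48 h on its gel, and no genotype, strain, sex or exact age is given in the labels used here. Libraries of a group are titled as biological replicates, but the labels do not tie them to animals or separate cultures, so each p-value covers only the spread among single libraries, which may be technical. Fresh and cultured libraries also carry different library letters, so any preparation that followed the letter cannot be told apart from culture. Each substrate has its own letter as well, so the same limit holds for the comparisons between substrates. Xist read between 44.1 and 60.1 counts per 1000000 counts of the library (CPM) in the 6 libraries, and the Y-linked genes looked up had 0 counts.

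Cardiac fibroblasts make and remodel the collagen-rich matrix of the heart. When they sense mechanical tension or transforming growth factor beta they can take on a contractile, matrix-secreting state called the myofibroblast, marked by smooth muscle actin, while inflammatory cytokines drive another state that secretes chemokines and matrix-degrading proteases. Serum response factor, AP-1, NF-kB and interferon regulatory factors are transcription factors known to act in these programmes, each through a short DNA motif.

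Culture on StiffA came with a broad difference from fresh cells. Of 13523 genes tested with edgeR's quasi-likelihood test (Benjamini-Hochberg adjusted p under 0.05), 3175 rose (23.5%) and 3364 fell (24.9%), and 7337 had an unadjusted p under 0.05. Past a 2-fold difference, 1730 genes rose (12.8%) and 1664 fell (12.3%). The median log2 fold over all tested genes was -0.02, and 0.03 with only the 6 libraries fitted. In 55.6% of the tested genes all libraries of 1 group lay above all of the other. Errors after ± are standard errors (SE) of log2 folds. Levels are given as CPM of each library's TMM-scaled total, which are not corrected for gene length, and the 6 libraries held 1987732 to 3275089 counts, so 10 CPM stood for 20 to 33 counts. The plot of fold against level shows genes that passed in both directions at every level.

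**Figure D1:**
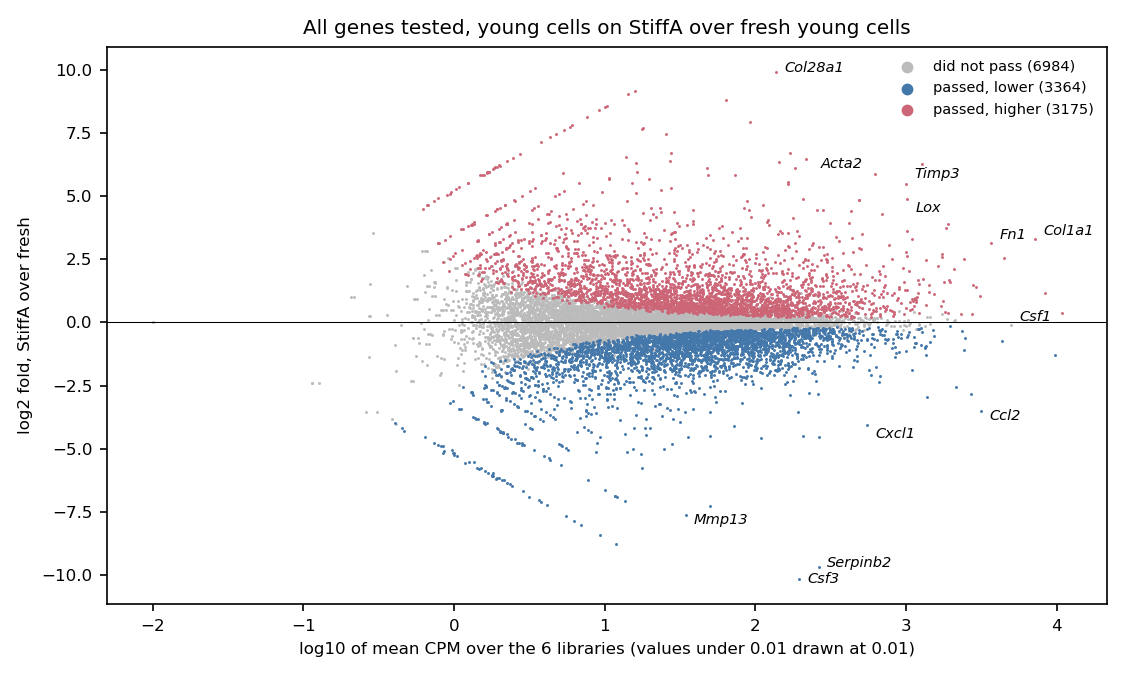
Each point is 1 of the 13523 genes tested, with the log10 of its mean CPM over the 6 libraries on the horizontal axis and its log2 fold (StiffA over fresh) on the vertical axis. The 3175 genes that passed and were higher are red, the 3364 that passed and were lower are blue, and slanted lines of points on the left are genes with few or no counts in 1 group.

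The largest rises by the naming rule were in genes near 0 in fresh cells. Col28a1 (chr6:7997808-8192618, mm39), which encodes a chain of type XXVIII collagen, had 2 counts in the fresh libraries together and 1889 on StiffA, a ratio of 1171 with a 95% counting interval of 324 to 9679. Bmp3, a member of the bone morphogenetic protein family, had 2 and 874 counts, a ratio of 542 (150 to 4482). Slc1a6, a glutamate transporter, had 0 and 216 counts and was at least 89.3-fold higher, where the bound sets the fresh group at 3 counts. Slc35f1, of a nucleotide sugar transporter family, had 0 and 197 counts and was at least 81.4-fold higher. Myh1, a fast skeletal myosin heavy chain, had 0 and 143 counts and was at least 59.1-fold higher, and its reads could be shared with near-identical myosin genes. Fitted folds of such genes depend on the prior count and are not bounds. The intervals cover counting error only.

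Among the largest falls, by the same rule, were a growth factor of neutrophils and an inhibitor of plasminogen activation. Csf3 (chr11:98592089-98594456, mm39), which encodes the granulocyte colony-stimulating factor, read 432, 386 and 353 CPM in the fresh libraries and 0, 0 and 0.846 CPM on StiffA. Its counts were 3343 and 2, a ratio of 1348 (95% counting interval 373 to 11130). Serpinb2, an inhibitor of plasminogen activators, read 519, 502 and 559 CPM fresh and 0.416, 0 and 1.27 CPM on StiffA. Its fitted fold, 825-fold lower, rests on few StiffA counts and depends on the prior count. The macrophage scavenger receptor Msr1 had 201 counts in fresh cells and 1 on StiffA. Il1rl1, the receptor for interleukin 33, had 197 and 1. For both, no StiffA library overlapped a fresh one.

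The 2 groups lay apart on the first principal component of the 6 libraries, which held 75.6% of the variance. The second held 8.82% and set StiffA library 3 (-33.3) apart from StiffA libraries 1 and 2 (13.4 and 19.6) and fresh library 1 (23.7) apart from the other fresh libraries (-6.12 and -17.2). Some genes followed that split within groups. Plk3, a stress kinase, read 50.6, 4.91 and 4.70 CPM fresh and 35.0, 58.5 and 2.54 CPM on StiffA. The heart transcription factor Gata4 read 144, 29.2 and 29.1 CPM fresh and 74.0, 87.7 and 19.5 CPM on StiffA, so the groups overlapped. With fresh library 1 and StiffA library 3 both left out, counts of called members moved by over 1.5 times in 7 of the 52 gene lists with a tested member, each in a direction held by 4 members or fewer.

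Genes of the contractile apparatus rose together. Of 25 tested contractile and myofibroblast genes, 20 rose (23.5% of all genes rose), 1 fell and the median log2 fold was 0.95. Acta2 (chr19:34218490-34232991, mm39), the smooth muscle actin that marks myofibroblasts, read 20.3, 19.6 and 23 CPM in fresh cells and 1120, 1145 and 1406 CPM on StiffA. The groups were far from overlapping, and the log2 fold was 5.87 ± 0.16 (SE), 58.6-fold (adjusted p = 2.2e-23, edgeR's quasi-likelihood test). Cnn1, the calponin of smooth muscle, had 0 counts in every fresh library and 137 on StiffA (22.9, 23.5 and 14.0 CPM), at least 56.6-fold higher.

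Other parts of the actomyosin machinery moved with them. Lmod1, a nucleator of smooth muscle actin filaments, read 0.344, 2.02 and 0.94 CPM fresh and 51.6, 44.1 and 43.6 CPM on StiffA (log2 fold 5.25 ± 0.30, SE). Myl9, a regulatory myosin light chain, read 12.7, 18.8 and 10.3 CPM fresh and 196, 200 and 275 CPM on StiffA (3.95 ± 0.20). Vcl, the focal adhesion protein vinculin, read 39.6, 33.8 and 36.2 CPM fresh and 270, 304 and 308 CPM on StiffA (3.01 ± 0.10), and its exons overlap those of Ap3m1 over 39.7% of their length in the GENCODE M21 models, so reads there could be assigned to either gene. In each of these genes every StiffA library was above every fresh one. Tagln2, an actin-binding relative of transgelin, was the 1 member that fell, from 482, 473 and 503 CPM to 231, 232 and 303 CPM.

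Serum response factor binds the CArG box, searched here by name on both strands in the 250 bases before each RefSeq start (GRCm38.p6, a build other than the files' mm39). It was found in 4 of 24 promoters of the contractile list (16.7%) and in 1.47% of all 32851 promoters. The stretches below, on the strand of the gene, show it, in capitals, in 2 contractile genes and in the immediate early gene Egr2, which rose too. Motif matches here are descriptions of sequence, not measured binding.
Myl9, chr2:156775278-156775337: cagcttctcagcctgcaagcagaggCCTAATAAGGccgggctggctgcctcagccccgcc
Vcl, chr14:20929148-20929205: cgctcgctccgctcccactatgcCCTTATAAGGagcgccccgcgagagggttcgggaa
Egr2, chr10:67537469-67537528: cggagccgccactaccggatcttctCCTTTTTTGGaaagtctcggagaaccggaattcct

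Of 30 tested genes of the actin cytoskeleton and focal adhesions, 24 rose and 2 fell, with a median log2 fold of 0.79. Fhl2, a LIM domain protein of adhesions and the nucleus, rose from 31.0, 28.3 and 40.9 CPM to 332, 334 and 394 CPM. The actin-severing Cfl1 and the actin-binding Pfn1 were the 2 that fell, by 0.49 and 0.39 on the log2 scale. Of 16 tested subunits of integrins, the receptors that tie matrix to the cytoskeleton, 8 rose and 4 fell (23.5% and 24.9% of all genes). The collagen receptor subunits Itga11 (1.72, 2.31 and 4.23 CPM fresh, 49.5, 65.2 and 50.8 CPM on StiffA) and Itga1 (log2 fold 3.44 ± 0.21) rose, as did Itga8 and Itgb5. Itgb3 of the vitronectin receptor fell by 1.72 and Itga5 of the fibronectin receptor by 0.84 on the log2 scale, with Itga6 and Itga7 also lower. The call of Itga6 was lost without any 1 of StiffA libraries 1, 2 and 3 and fresh libraries 2 and 3 (adjusted p up to 0.12, edgeR's quasi-likelihood test). Without fresh library 1 and StiffA library 3, 2 subunits in place of 4 were called lower.

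The matrix itself carried some of the largest differences in level. Fibrillar collagens, which form the tensile fibres of the heart interstitium, took a summed 3579 to 3956 CPM in fresh libraries and 25110 to 27470 CPM on StiffA. Of 8 tested genes 7 rose and none fell, with a median log2 fold of 2.57. Col1a1 (chr11:94827050-94843869, mm39), the alpha 1 chain of type I collagen, read 1286, 1278 and 1416 CPM fresh and 12130, 12880 and 13780 CPM on StiffA. That was a log2 fold of 3.29 ± 0.07 (SE), 9.75-fold (adjusted p = 1.6e-25, edgeR's quasi-likelihood test). Col3a1 of type III collagen rose by 2.53 ± 0.08 on the log2 scale, from 1193, 1380 and 1369 CPM to 7140, 7810 and 7840 CPM. Col11a1, a chain of the minor fibrillar type XI collagen, rose from 4.13, 4.62 and 6.11 CPM to 421, 414 and 451 CPM. No library of 1 group overlapped the other in these 3 genes. Col5a3 stood at 8.82 CPM fresh and 8.90 CPM on StiffA and did not pass.

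Among the other collagens 7 of 10 tested rose and none fell (median log2 fold 2.18), and 1 fell without fresh library 1. Col12a1, a collagen that sits on the surface of type I fibrils, rose from 10.7, 17.3 and 12.2 CPM to 402, 377 and 420 CPM. Col6a1 of the pericellular type VI collagen rose by 3.50 ± 0.08 on the log2 scale, while Col6a3 of the same trimer had a log2 fold of -0.46 ± 0.23 and did not pass. Basement membrane genes followed, with 15 of 21 tested higher and 2 lower (median 1.27). Col4a5 rose by 3.93 ± 0.09 and Col4a1 by 1.78 ± 0.08 on the log2 scale, and the 2 that fell were Col4a4 and Smoc2. Without fresh library 1 and StiffA library 3, 1 of them was still called, and Col4a4 also lost its call without StiffA library 2 or 3 or fresh library 2 (adjusted p up to 0.10, edgeR's quasi-likelihood test).

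Enzymes that fold and crosslink collagen rose in 22 of 29 tested genes, and 2 fell (median log2 fold 0.74). Lox, the lysyl oxidase that crosslinks collagen and elastin, read 68.1, 63.2 and 70.5 CPM fresh and 1745, 1977 and 2147 CPM on StiffA, 29.1-fold higher (4.86 ± 0.15). P4ha1, a prolyl hydroxylase subunit, rose from 141, 149 and 138 CPM to 475, 491 and 558 CPM. Plod2, a lysyl hydroxylase, read 81.9, 33.8 and 35.7 CPM fresh and 458, 557 and 260 CPM on StiffA, with fresh library 1 high and StiffA library 3 low within their groups. The procollagen peptidase Adamts14 and the enhancer Pcolce2 fell, by 2.37 and 0.55 on the log2 scale.

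Elastic fibre and microfibril genes rose in 18 of 22 tested, with a median log2 fold of 1.66. Mfap4, a microfibril glycoprotein, rose from 7.22, 3.18 and 5.64 CPM to 312, 340 and 423 CPM, and Fbln5, needed for elastic fibre assembly, rose by 4.44 ± 0.11 on the log2 scale. Eln, elastin itself, rose by 2.61 ± 0.18. Emilin2 was the 1 member that fell. Of 21 tested proteoglycan and hyaluronan genes 12 rose and 6 fell. Fmod, fibromodulin, which regulates fibril diameter, rose from 1.38, 0.578 and 2.35 CPM to 81.5, 97.3 and 103 CPM, and the hyaluronan-binding Vcan fell by 1.35 ± 0.15 on the log2 scale.

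Matricellular proteins signal from the matrix without building it, and the list used here also holds fibronectin, a structural matrix protein. Of 19 tested, 14 rose and 4 fell (median log2 fold 1.63). Ccn5, a secreted member of the CCN family, read 29.9, 35.2 and 31.9 CPM fresh and 2340, 2393 and 2851 CPM on StiffA (6.28 ± 0.12), and Fn1, fibronectin, 713, 734 and 807 CPM against 6178, 6574 and 7004 CPM (3.13 ± 0.09). Postn, periostin, a marker of activated fibroblasts, read 8.26, 5.49 and 7.52 CPM fresh and 49.1, 36.4 and 53.8 CPM on StiffA (2.73 ± 0.25). Ccn2, connective tissue growth factor, read 10.7, 20.2 and 12.2 CPM fresh and 94.0, 89.2 and 74.5 CPM on StiffA (2.54 ± 0.19). All of these groups were separate. Spp1, osteopontin, went the other way, from 541, 466 and 504 CPM to 17.9, 25.9 and 21.6 CPM (-4.54 ± 0.23), and Ccn3, Tnxb and Tnc also fell.

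**Figure D2:**
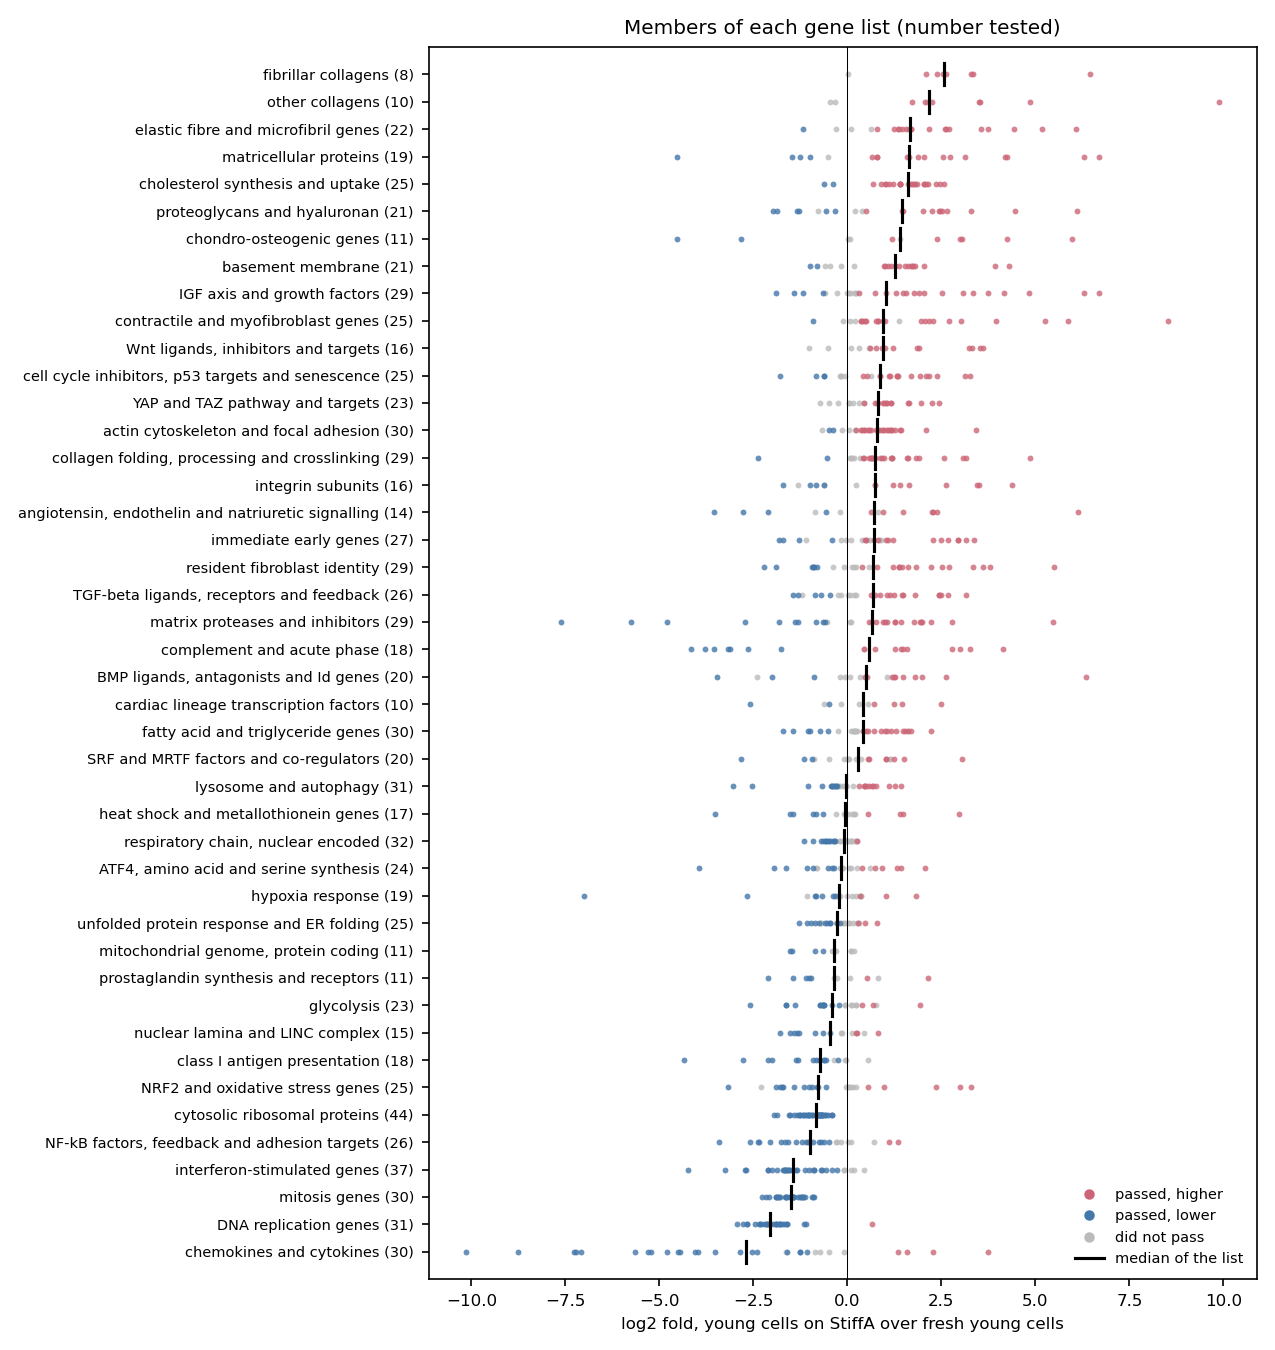
Each point is a tested member of the list named at the left (number tested in brackets), placed by its log2 fold of StiffA over fresh on the horizontal axis, red or blue where it passed and grey where it did not, and the black bar is the median of the list. Fibrillar collagens (median 2.57) stand at the top and chemokines and cytokines (-2.70) at the bottom.

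Matrix-degrading enzymes moved in both directions, with 16 of 29 tested higher and 10 lower (median log2 fold 0.66). Mmp13 (chr9:7272514-7283332, mm39), a collagenase, read 69.8, 65.8 and 70.0 CPM fresh and 0.416, 0.479 and 0 CPM on StiffA. Its counts were 580 and 2, a ratio of 234 (95% counting interval 64.4 to 1936). Mmp10, stromelysin 2, read 29.2, 38.1 and 36.6 CPM fresh and 1.66, 0 and 0 CPM on StiffA. Mmp3, stromelysin 1, stayed high but fell from 13960, 13960 and 13830 CPM to 5630, 5511 and 5770 CPM (-1.30 ± 0.05). Plaur, the urokinase receptor, fell from 119, 104 and 103 CPM to 14.1, 17.7 and 17.4 CPM. All 4 stood lower in every StiffA library than in any fresh one. Timp3 (chr10:86136236-86185371, mm39), a matrix-bound inhibitor of metalloproteinases, rose from 41.6, 42.2 and 48.9 CPM to 1717, 1885 and 2282 CPM (5.48 ± 0.13). The aggrecanase Adamts5 rose from 242, 248 and 272 CPM to 1590, 1694 and 1953 CPM.

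AP-1, the Fos and Jun dimer, binds TGACTCA or TGAGTCA, found on either strand in 6 of 25 promoters of the protease list (24%) and in 4.46% of all promoters of the same length. Among metalloproteinases that fell, Mmp3, Mmp10, Mmp12 and Mmp13 hold it within 63 bases of the start. It is shown in capitals for Mmp13 and Mmp10, which had the largest falls of these 4.
Mmp13, chr9:7272454-7272510: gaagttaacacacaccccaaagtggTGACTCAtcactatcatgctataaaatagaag
Mmp10, chr9:7502254-7502310: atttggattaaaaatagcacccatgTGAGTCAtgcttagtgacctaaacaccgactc

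In the transforming growth factor beta list 14 of 26 tested genes rose and 5 fell (median log2 fold 0.68). The ligands Tgfb2 and Tgfb3 rose, Tgfb2 from 15.8, 19.9 and 15.5 CPM to 87.8, 89.2 and 102 CPM and Tgfb3 from 22, 23.1 and 22.1 CPM to 156, 131 and 145 CPM. The receptor gene Tgfbr1 fell by 0.87 ± 0.15 on the log2 scale, the co-receptor Tgfbr3 by 1.46 ± 0.13 and Lrrc32, which holds latent ligand on the cell surface, by 1.31 ± 0.07. Smad3 and Tgif1 also fell, and Tgfbr2 had a log2 fold of 0.24 ± 0.17 and did not pass. Pmepa1, a feedback inhibitor that the pathway induces, rose by 3.15 ± 0.25. The ligand genes Tgfb2 and Tgfb3 and the feedback gene Pmepa1 were thus higher in the cultured libraries, and Smad3, Tgif1 and Lrrc32 were lower. Of the receptor genes named here, Tgfbr1 and Tgfbr3 were lower and Tgfbr2 did not pass.

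Among bone morphogenetic protein genes 10 of 20 tested rose and 3 fell. The ligand Bmp4 rose from 21.0, 26.3 and 20.2 CPM to 136, 149 and 137 CPM, the antagonist Grem1 fell from 13.8, 9.24 and 18.3 CPM to 0.832, 1.44 and 1.27 CPM, and Bmp2 and Id2 fell. Bmp2 lost its call without StiffA library 1 or 2 or fresh library 2 (adjusted p up to 0.15, edgeR's quasi-likelihood test). Gdf6 rose but was uneven, at 318, 408 and 121 CPM on StiffA. Wnt pathway genes rose in 11 of 16 tested and none fell. The secreted inhibitor Sfrp1 rose from 166, 144 and 154 CPM to 1979, 1799 and 1879 CPM, and the ligand Wnt5a rose by 0.99 ± 0.35 on the log2 scale, a call that was lost without StiffA library 2 (adjusted p = 0.057, edgeR's quasi-likelihood test) or fresh library 1 (0.090). Growth factor genes rose in 17 of 29 tested and fell in 4 (median 1.03). The lymphangiogenic ligand Vegfd rose from 31.0, 36.4 and 31.5 CPM to 904, 948 and 981 CPM. Igf1 rose from 8.95, 9.24 and 11.3 CPM to 177, 176 and 175 CPM, and the heparin-binding factor Ptn rose by 6.69 ± 0.15. Igfbp3, Hgf, Nrg1 and Hbegf fell.

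YAP and TAZ are co-activators that respond to stiffness and act through TEAD factors. Of 23 tested pathway and target genes 15 rose and none fell (median log2 fold 0.81). Compared with the other gels, 5 were higher on StiffA than on SoftY, 1 than on SoftA and none than on StiffY. None was lower, and the median log2 differences were 0.31, 0.11 and 0.12. The count against SoftY was 2 without SoftY library 1 and 3 without StiffA library 2. Ankrd1, a cardiac ankyrin repeat protein and common YAP target, read 483, 474 and 480 CPM fresh and 1352, 1353 and 1683 CPM on StiffA (1.61 ± 0.10). F3, tissue factor, rose from 69.5, 84.3 and 74.7 CPM to 373, 352 and 366 CPM. The receptor tyrosine kinase gene Axl, another target, stood at 1950, 2092 and 2085 CPM fresh and 2059, 2116 and 2163 CPM on StiffA, overlapping (0.05 ± 0.06). The TEAD motif GGAATG was found on either strand in 11 of 21 promoters of the list (52.4%) and in 12.6% of all promoters. Ankrd1 shows it in capitals.
Ankrd1, chr19:36119937-36119992: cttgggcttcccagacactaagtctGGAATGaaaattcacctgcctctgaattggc

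Transcripts of the immediate early class, which respond within minutes to growth factors and stress, were higher on StiffA for the Egr and Nr4a1 members. Of 27 tested 14 rose and 4 fell (median log2 fold 0.71). Egr1 read 192, 180 and 182 CPM fresh and 772, 830 and 1075 CPM on StiffA (2.27 ± 0.17), and Nr4a1 (chr15:101152150-101172677, mm39), an orphan nuclear receptor, 40.6, 36.4 and 33.4 CPM against 346, 307 and 331 CPM (3.15 ± 0.16). Fos rose from 17.6, 14.4 and 16.4 CPM to 94.8, 85.8 and 125 CPM. In these 3 genes the groups were separate. The AP-1 member Fosl1 fell from 36.5, 35.2 and 31.5 CPM to 9.98, 10.1 and 9.31 CPM, though 62.4% of its exon length overlaps another gene, and Nr4a2, Ier3 and Myc fell too. The CArG box was present in 6 of 28 promoters of this list (21.4%), which belong to 3 of 22 genes (Egr2, Dusp5 and Zfp36) since a gene can have several starts, and the cyclic AMP response element TGACGTCA in 10.7%, against 1.55% of all promoters.

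Chemokines and cytokines showed the lowest median of the main lists. Of 30 tested 21 fell and 4 rose (24.9% and 23.5% of all genes), all 25 by more than 2-fold, with a median log2 fold of -2.70, or -2.23 with genes at 0 set at their bounds. Ccl2 (chr11:81926397-81928280, mm39), a monocyte chemoattractant, read 5804, 5831 and 5646 CPM fresh and 535, 459 and 512 CPM on StiffA. The groups did not overlap, and Ccl2 was 11.5-fold lower (log2 fold -3.52 ± 0.07, adjusted p = 7.0e-27, edgeR's quasi-likelihood test). The neutrophil chemoattractant Cxcl1 read 1027, 1073 and 1030 CPM fresh and 59.9, 61.9 and 65.2 CPM on StiffA (-4.06 ± 0.13), and Cxcl2 56.8, 48.8 and 57.3 CPM against 2.91, 0.479 and 2.12 CPM. Ccl3 had 200 counts in fresh cells and 0 on StiffA, at least 53.8-fold lower. Il6 fell less, from 179, 207 and 196 CPM to 64.5, 66.6 and 59.7 CPM (-1.61 ± 0.14).

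Not all cytokine genes were lower. Csf1, the macrophage growth factor, stood at 4959, 5224 and 5253 CPM fresh and 4652, 4786 and 4982 CPM on StiffA, a log2 fold of -0.10 ± 0.06 that did not pass (adjusted p = 0.18, edgeR's quasi-likelihood test). Il34, the other ligand of the same receptor, rose from 0, 0.578 and 1.88 CPM to 8.74, 12.9 and 9.31 CPM. The membrane-bound chemokine Cx3cl1 rose from 6.88, 5.49 and 8.46 CPM to 23.7, 32.6 and 41.9 CPM, and Il15 (lost without StiffA library 1, adjusted p = 0.093, edgeR's quasi-likelihood test) and Ccl20 were the remaining 2 that rose. The count that rose was 2 in place of 4 without StiffA library 1, and 2 of 22 tested with only the 6 libraries fitted.

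Genes of NF-kB feedback and its adhesion targets fell in 17 of 26 tested and rose in 2 (median log2 fold -0.98). Nfkbia, the inhibitor that NF-kB itself induces, read 214, 209 and 220 CPM fresh and 54.5, 45.1 and 54.2 CPM on StiffA (-2.06 ± 0.16). Sod2, the mitochondrial superoxide dismutase, fell from 1138, 1134 and 1066 CPM to 229, 215 and 214 CPM. The leukocyte adhesion genes parted, with Vcam1 lower (966, 945 and 1010 CPM fresh, 262, 273 and 315 CPM on StiffA) and Icam1 higher (47.5, 52.6 and 41.8 CPM against 99.8, 93.0 and 115 CPM). Irak2 was the other gene that rose. The NF-kB motif, searched by name on both strands, was found in 8 of 27 cytokine promoters (29.6%). It was in 43.5% of the feedback list and in 3.9% of all promoters. Of the cytokine genes with the motif, Cxcl1, Cxcl2, Cxcl3 and Il6 fell and Ccl20 rose. Ccl9 and Csf1 hold it and did not pass, and Cxcl10 was not tested. In the feedback list, Nfkbie and Rel hold it and did not pass. The 3 neighbouring chemokine genes below share the same 11 bases, in capitals.
Cxcl1, chr5:90891150-90891209: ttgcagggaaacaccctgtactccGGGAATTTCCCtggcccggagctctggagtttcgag
Cxcl2, chr5:90903778-90903837: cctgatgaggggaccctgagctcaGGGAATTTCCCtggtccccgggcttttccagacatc
Cxcl3, chr5:90786004-90786063: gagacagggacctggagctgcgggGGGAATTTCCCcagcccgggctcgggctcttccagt

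Interferon-stimulated genes, the antiviral set induced through STAT and IRF factors, fell in 31 of 37 tested, and none rose (median log2 fold -1.44). Irf7 (chr7:140842619-140846395, mm39), the IRF that amplifies the response, read 310, 294 and 289 CPM fresh and 69.9, 56.6 and 80.8 CPM on StiffA (-2.10 ± 0.13). The ubiquitin-like Isg15 read 200, 170 and 164 CPM fresh and 41.2, 34.5 and 56.7 CPM on StiffA (-2.01 ± 0.19), and Ifit1, which binds viral RNA, 314, 298 and 293 CPM against 107, 98.3 and 127 CPM (-1.44 ± 0.17). All 3 were lower in every StiffA library. Ifit2 had a log2 fold of 0.19 ± 0.16 and Irgm1 of -0.09 ± 0.13, and neither passed. The interferon-stimulated response element (2 copies of GAAA separated by any 2 bases, either strand) was found in 14 of 34 promoters of the list (41.2%) and in 2.98% of all promoters. It is in capitals below, and in Ifit1 it reads on the opposite strand.
Isg15, chr4:156200850-156200909: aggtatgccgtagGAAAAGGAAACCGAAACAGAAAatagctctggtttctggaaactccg
Ifit1, chr19:34640779-34640838: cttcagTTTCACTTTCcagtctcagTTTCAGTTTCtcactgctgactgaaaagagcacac
Oas1a, chr5:120907526-120907564: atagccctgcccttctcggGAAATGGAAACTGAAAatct

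Class I antigen presentation genes fell in 14 of 18 tested and none rose (median log2 fold -0.74). Nlrc5, the transactivator of class I genes, fell from 20.3, 20.2 and 12.7 CPM to 1.25, 5.27 and 6.77 CPM, and B2m, the shared light chain, had a log2 fold of -0.36 ± 0.22 and did not pass. Complement and acute phase genes split, with 10 of 18 tested higher and 7 lower. C3, the central complement component, rose from 64.7, 58.3 and 68.1 CPM to 489, 496 and 522 CPM. The protease inhibitor Serpina3n rose by 4.14 ± 0.12 on the log2 scale. The iron-binding Lcn2 fell by 3.54 ± 0.25 and the acute phase gene Saa3 from 58.8, 39.3 and 44.2 CPM to 6.24, 6.71 and 9.73 CPM.

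Markers of other cell types differed between the groups as well, and their part in the results above was not tested. In bulk RNA, fewer cells of a type and less RNA per cell cannot be told apart. Macrophage markers fell in 10 of 13 tested and none rose, and the summed level of the list was 246 to 249 CPM fresh and 37.4 to 44.5 CPM on StiffA. The macrophage marker Adgre1 read 46.1, 47.6 and 50.7 CPM fresh and 0.832, 0 and 3.39 CPM on StiffA, and Csf1r, the receptor for Csf1, 19.9, 25.1 and 12.7 CPM against 2.08, 1.44 and 2.12 CPM. Neutrophil markers summed to 18.2 to 22 CPM fresh and 0.959 to 2.50 CPM on StiffA, and 2 of 4 tested fell. Within that sum Mmp9 had 81 counts in fresh cells and 2 on StiffA, Clec4d 41 and 0, and S100a8 only 5 and 0. Of 17 tested endothelial markers 12 fell and 3 rose, with Pecam1 at 18.6, 18.8 and 17.4 CPM fresh and 4.99, 1.92 and 10.2 CPM on StiffA. The summed endothelial level was not lower, at 598 to 630 CPM fresh and 668 to 756 CPM on StiffA, and most of it was Eng, at 338 to 342 CPM fresh and 491 to 554 CPM on StiffA. Of 9 tested markers of pericytes and smooth muscle 5 rose and 1 fell (median log2 fold 1.30), with sums of 405 to 460 CPM fresh and 575 to 634 CPM on StiffA. Lmod1 belongs to that list and to the contractile genes, and Rgs5, a pericyte marker, fell. All 4 tested Schwann and glial markers rose, with sums of 286 to 314 CPM fresh and 445 to 487 CPM on StiffA, mostly from Gpm6b, and 2 of 4 tested epicardial and mesothelial markers rose. Cardiomyocyte markers were low in all 6 libraries (9.24 to 17.4 CPM summed in fresh cells and 22.1 to 33.9 CPM on StiffA), with Myh7, Actn2, Ckm, Mb, Myl2, Myl3, Myl7 and Nppa at 0 counts. No member of the lymphocyte or erythroid lists had enough counts to be tested. Outside the lists, Trdc, the constant region gene of the T cell receptor delta chain, had 122 counts in fresh cells and 0 on StiffA, at least 32.8-fold lower (named after its values were seen).

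The labelled cell type could be checked against fibroblast markers. Pdgfra, the receptor that defines resident fibroblasts, read 1655, 1779 and 1892 CPM fresh and 971, 962 and 835 CPM on StiffA, present in both groups and lower in culture (-0.94 ± 0.09). Of 29 tested identity genes 15 rose and 6 fell (median log2 fold 0.69). The matrix protein gene Dpt rose from 6.88, 9.24 and 4.23 CPM to 327, 333 and 302 CPM, and Gsn, an actin-severing protein, from 682, 728 and 754 CPM to 4196, 4282 and 3865 CPM. Tcf21, the transcription factor of the epicardial lineage, rose from 39.6, 31.5 and 27.7 CPM to 82.4, 82.9 and 108 CPM. Hsd11b1, which activates glucocorticoids, rose by 2.71 ± 0.09 on the log2 scale, and Ackr3, Igfbp3 and Smoc2 were among those that fell. Among transcription factors of the heart, Tbx20 rose (2.49 ± 0.12) and Tbx3 fell (-2.60 ± 0.33).

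**Figure D3:**
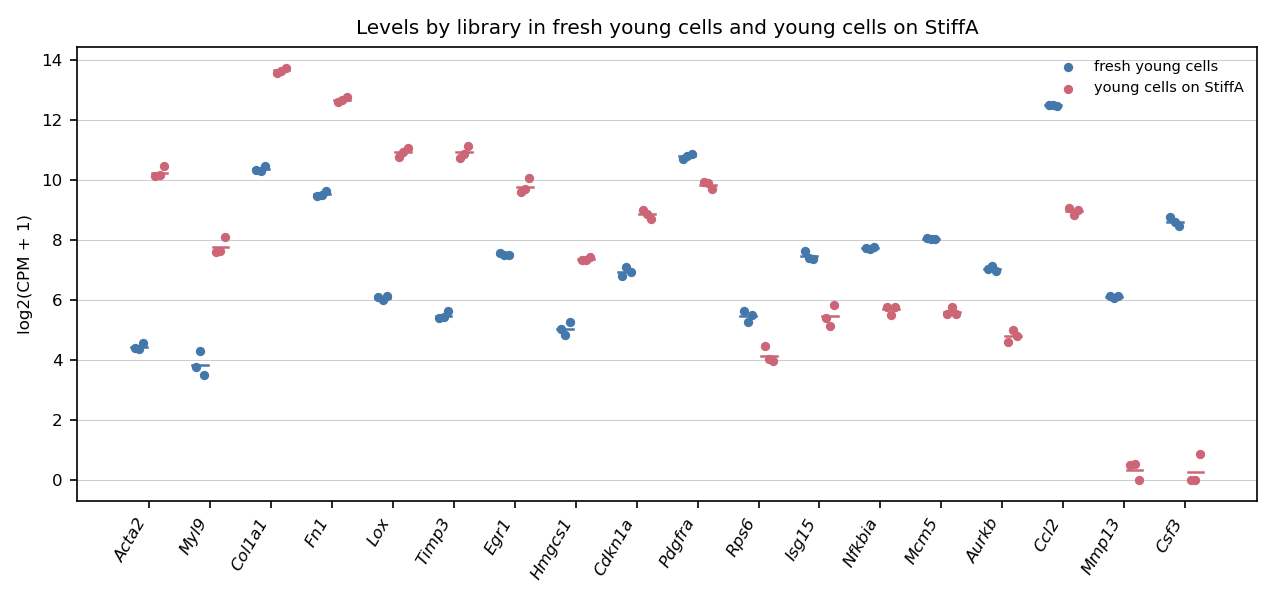
Points are single libraries (blue fresh, red StiffA), bars are group means, and the vertical axis is log2(CPM + 1) without correction for gene length. In all 18 genes drawn the 3 StiffA libraries lie wholly above or wholly below the 3 fresh ones, as in 55.6% of all genes tested, from Acta2 at the left to Csf3, at or near 0 on StiffA, at the right.

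Genes of the cell cycle fell. All 30 tested mitosis genes were lower on StiffA (24.9% of all genes fell), 27 of them by more than 2-fold (12.3% of all genes), with a median log2 fold of -1.49. Aurkb, a kinase of chromosome segregation, read 132, 141 and 124 CPM fresh and 23.7, 31.6 and 27.1 CPM on StiffA (-2.27 ± 0.16), and Birc5 of the same complex 109, 116 and 110 CPM against 22.1, 25.4 and 27.9 CPM. Of 31 DNA replication genes 30 fell (median -2.05) and E2f1 rose. E2f1 lost its call without StiffA library 1, 2 or 3 or fresh library 1 or 3 (adjusted p up to 0.16, edgeR's quasi-likelihood test). Mcm5, a subunit of the replicative helicase, read 267, 261 and 264 CPM fresh and 46.2, 53.7 and 45.7 CPM on StiffA (-2.45 ± 0.13). Cdc6, which loads that helicase, fell from 100, 93.3 and 94.4 CPM to 12.1, 13.4 and 11.8 CPM. In these 4 genes the groups were separate. Without fresh library 1 and StiffA library 3, all 30 mitosis genes still passed as lower and E2f1 no longer passed.

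The CCAAT box bound by NFY (CCAAT with 2 purines before it, either strand) was found in 80.8% of the mitosis promoters and in 15.7% of all promoters, and the cell cycle element TTTGAA in 34.6% and 16%. Aurka, a spindle kinase that fell by 1.91 ± 0.17, and Cdca8, a partner of Aurkb, show the CCAAT box in capitals.
Aurka, chr2:172370571-172370616: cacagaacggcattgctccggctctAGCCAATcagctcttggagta
Cdca8, chr4:124936918-124936953: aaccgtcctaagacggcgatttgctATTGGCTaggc

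The list of cell cycle inhibitors, p53 targets and senescence genes rose in 16 of 25 tested and fell in 4 (median log2 fold 0.86). Cdkn1a, the p21 inhibitor of cyclin-dependent kinases, read 110, 137 and 121 CPM fresh and 514, 470 and 422 CPM on StiffA (1.93 ± 0.10). Cdkn2a, which encodes p16 and is used as a marker of senescence, was low throughout, at 0.688, 0.866 and 0.940 CPM fresh and 3.33, 6.23 and 4.23 CPM on StiffA (2.39 ± 0.55, adjusted p = 0.0006, edgeR's quasi-likelihood test). Ccng1, a p53 target, rose from 109, 119 and 123 CPM to 509, 519 and 560 CPM. The transcript of p53 itself, Trp53, fell from 116, 100 and 125 CPM to 54.1, 62.8 and 75.3 CPM, and Ccnd1, Plk2 and Lmnb1 fell too. Lmnb1, lamin B1, read 164, 119 and 98.2 CPM fresh and 47.0, 44.1 and 20.3 CPM on StiffA. Of 15 tested nuclear lamina and LINC complex genes 8 fell and 3 (Tmem43, Sun1 and Lmna) rose. Sun1 lost its call without StiffA library 1, 2 or 3 or fresh library 2 or 3 (adjusted p up to 0.13, edgeR's quasi-likelihood test).

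Cholesterol synthesis was the metabolic list with the highest median (1.60). Of 25 tested genes 23 rose, 20 of them by more than 2-fold, and Ebp and Scap fell. Scap lost its call without StiffA library 1, 2 or 3 or fresh library 1 or 3 (adjusted p up to 0.074, edgeR's quasi-likelihood test). Hmgcs1 (chr13:120151915-120169797, mm39), an early enzyme of the mevalonate pathway, read 32.0, 28.0 and 37.6 CPM fresh and 160, 163 and 174 CPM on StiffA (2.36 ± 0.12). Sqle, the squalene epoxidase, rose from 71.9, 76.8 and 79.4 CPM to 350, 331 and 325 CPM. Both were higher in every StiffA library. Without fresh library 1 and StiffA library 3, 1 gene in place of 2 was called lower. The sterol response element (TCAC, any base, CCAC) was found in 1 of 22 promoters of the list and in 1.05% of all promoters, and the CCAAT box in 68.2%. The 1 promoter with the sterol element was that of Hmgcs1.
Hmgcs1, chr13:119690189-119690247: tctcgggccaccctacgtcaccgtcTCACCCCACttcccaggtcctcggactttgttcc

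Other metabolic lists moved less. Of 30 tested fatty acid and triglyceride genes 14 rose and 6 fell (23.5% and 24.9% of all genes). Fads2, a fatty acid desaturase, rose by 1.68 ± 0.09 on the log2 scale and Cd36, a fatty acid transporter, fell by 1.72 ± 0.28. Glycolysis genes fell in 13 of 23 tested and rose in 3 (median log2 fold -0.42). Hk2, a hexokinase, fell from 132, 130 and 135 CPM to 43.3, 42.2 and 41.9 CPM, and the lactate transporter gene Slc16a1 from 79.5, 76.8 and 61.5 CPM to 12.5, 12 and 11.4 CPM. Ldhb, Pfkm and Pfkfb3 rose, and 1 of these 3 calls was kept without fresh library 1 and StiffA library 3. Pfkm lost its call without StiffA library 2 or 3 or fresh library 1, and Pfkfb3 without StiffA library 1, 2 or 3 or fresh library 2 or 3 (adjusted p up to 0.083 and 0.19, edgeR's quasi-likelihood test). Of 32 nuclear-encoded respiratory chain genes 12 fell (24.9% of all genes) and Sdha rose.

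NRF2 targets and oxidative stress genes fell in 12 of 25 tested and rose in 5 (median log2 fold -0.79). The cystine transporter gene Slc7a11 fell from 162, 130 and 145 CPM to 13.7, 18.2 and 16.5 CPM. The extracellular antioxidant enzymes went up, Gpx3 from 200, 207 and 203 CPM to 1828, 1874 and 2255 CPM and Sod3 from 56.4, 60.1 and 60.1 CPM to 421, 448 and 529 CPM, and Gstm1, Akr1b8 and Cat also rose. The metallothionein Mt1, which binds metals, fell from 401, 338 and 327 CPM to 29.1, 30.2 and 33.0 CPM, and the small heat shock protein gene Cryab rose by 2.96 ± 0.09 on the log2 scale. Folding genes of the endoplasmic reticulum fell in 11 of 25 tested and rose in 3 (24.9% and 23.5% of all genes). Those that rose were Herpud1, Sel1l and Xbp1. Xbp1 lost its call without StiffA library 3 or fresh library 2 (adjusted p up to 0.087, edgeR's quasi-likelihood test). The chaperone Hspa5 fell by 0.74 ± 0.06.

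Cytosolic ribosomal protein genes fell in 41 of 44 tested and none rose (median log2 fold -0.82). Rps6 read 48.5, 37.5 and 44.6 CPM fresh and 21.2, 15.3 and 14.8 CPM on StiffA. Reads of ribosomal protein genes can be shared with their processed pseudogenes, so their levels are uncertain. Of 11 tested protein-coding genes of the mitochondrial genome 4 fell (mt-Nd1, mt-Nd2, mt-Nd5 and mt-Nd6), and mt-Cytb stood at 1886, 2100 and 2133 CPM fresh and 2054, 2138 and 2296 CPM on StiffA, overlapping (0.08 ± 0.07). Of 31 tested lysosome and autophagy genes 11 rose and 11 fell (23.5% and 24.9% of all genes), and 7 fell without StiffA library 1. Cathepsin D, Ctsd, rose by 1.43 ± 0.08 on the log2 scale, and the macrophage-rich cathepsin Ctss fell by 3.06 ± 0.46.

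StiffA was also compared directly with the other substrates in young cells, in 3 comparisons that share the StiffA libraries. Against SoftY 439 genes were higher and 323 lower on StiffA, 5.63% of those tested. SoftY had 2 libraries, and the counts were 166 higher and 197 lower without SoftY library 1 and 231 and 212 without library 2. Of the 25 contractile genes 10 were higher and none lower, but the count was 4, 5 and 6 without StiffA library 1, 2 or 3, 1 without SoftY library 1 and 5 without SoftY library 2. Of the 25 cholesterol genes 14 were higher and none lower, and 6 were higher without either SoftY library. No contractile or cholesterol gene was called on StiffA against StiffY or against SoftA. Cnn1 read 5.61 and 9.99 CPM on SoftY against 22.9, 23.5 and 14.0 CPM on StiffA (1.39 ± 0.35), a call that was lost without StiffA library 1 or 2 or SoftY library 1 (adjusted p up to 0.26, edgeR's quasi-likelihood test). Acta2 read 738 and 898 CPM on SoftY and was higher on StiffA by 0.58 ± 0.14. Col12a1 read 125 and 127 CPM on SoftY against 402, 377 and 420 CPM on StiffA, a log2 difference of 1.66 ± 0.14 (adjusted p = 5.8e-10, edgeR's quasi-likelihood test), and Timp3 differed by 1.51 ± 0.12. Glycolysis genes were higher in 10 of 23. The list of cell cycle inhibitors, p53 targets and senescence genes was higher in 9 of 25, and neither list had a lower gene. The glycolysis count was 6 without StiffA library 3, 4 without SoftY library 1 and 5 without SoftY library 2. No glycolysis gene was called on StiffA against StiffY or SoftA. In the list of cell cycle inhibitors, p53 targets and senescence genes 1 gene was lower against StiffY and 1 higher against SoftA.

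Some genes stood lower on StiffA than on SoftY. Enpp2, autotaxin, which makes lysophosphatidic acid, read 317 and 299 CPM on SoftY and 49.1, 48.9 and 38.1 CPM on StiffA (-2.76 ± 0.16), while fresh cells read 89.1, 86.6 and 99.6 CPM. Saa3 read 73.2 and 56.5 CPM on SoftY and 6.24, 6.71 and 9.73 CPM on StiffA (-3.09 ± 0.34). Col15a1, a basement membrane zone collagen, read 95.4 and 81.7 CPM on SoftY and 15.0, 13.4 and 14.4 CPM on StiffA (-2.63 ± 0.21). The complement and acute phase list was lower in 10 of 18 tested, with none higher, and the resident fibroblast list in 8 of 29, with 1 higher. Compared with StiffY, the complement list had 1 gene higher on StiffA and none lower, and compared with SoftA none was called. The resident fibroblast list had 2 higher and 1 lower against StiffY, and 1 lower against SoftA.

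Against the other stiff gel, StiffY, 59 genes differed (39 higher and 20 lower, 0.436% of those tested). The counts were 20 and 3 without StiffA library 1, 22 and 7 without StiffA library 2, 25 and 13 without StiffY library 1, 15 and 3 without StiffY library 2, and 19 and 7 without StiffY library 3. Enpp2 read 12.1, 14.5 and 15.0 CPM on StiffY and was higher on StiffA by 1.72 ± 0.19 on the log2 scale, so its order was StiffY, StiffA, fresh and SoftY from low to high. Col12a1 read 208, 227 and 234 CPM on StiffY and was higher on StiffA by 0.85 ± 0.12. Of the 30 mitosis genes 7 were lower on StiffA than on StiffY and none higher, a count of 1 to 5 with any 1 library left out. It was 2 without StiffA library 1 or 2, 3 without StiffY library 1 or 3, and 1 without StiffY library 2. No mitosis gene was called on StiffA against SoftY (median log2 difference 0.09) or against SoftA (0.10). Top2a, the mitotic topoisomerase, read 122, 123 and 136 CPM on StiffY and 68.2, 71.0 and 76.2 CPM on StiffA (-0.81 ± 0.13), against 253, 241 and 275 CPM in fresh cells. Tk1, thymidine kinase, differed by -0.90 ± 0.16.

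Against the other gel named for aged matrix, SoftA, 39 genes differed (26 higher and 13 lower, 0.288%). The higher count was 13, 11 and 16 without StiffA library 1, StiffA library 3 and SoftA library 1, and the lower count was 2, 5 and 5 without StiffA library 1, StiffA library 2 and SoftA library 3 and 38 without SoftA library 2. Of the 37 interferon-stimulated genes 14 were higher on StiffA and none lower, with a median log2 difference of 0.85. The count was 7 without StiffA library 3 or without SoftA library 2. On StiffA against SoftY, 1 gene of this list was higher and 1 lower (median 0.02). None was called on StiffA against StiffY (median -0.23). Ifit1 read 33.2, 32.6 and 33.1 CPM on SoftA and 107, 98.3 and 127 CPM on StiffA, a log2 difference of 1.75 ± 0.20 (adjusted p = 9.8e-06, edgeR's quasi-likelihood test), and Irf7 differed by 1.17 ± 0.16. Both remained below the fresh level. Ccl2 read 744, 740 and 731 CPM on SoftA and was lower on StiffA by 0.56 ± 0.06 on the log2 scale. Tcf21 read 173, 129 and 198 CPM on SoftA and 82.4, 82.9 and 108 CPM on StiffA (-0.85 ± 0.17), a call that was lost without StiffA library 1 or 2 or SoftA library 1 or 3 (adjusted p up to 0.19, edgeR's quasi-likelihood test). StiffA and SoftA overlapped for Timp3, which read 2009, 1699 and 2309 CPM on SoftA, and for Cnn1.

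**Figure D4:**
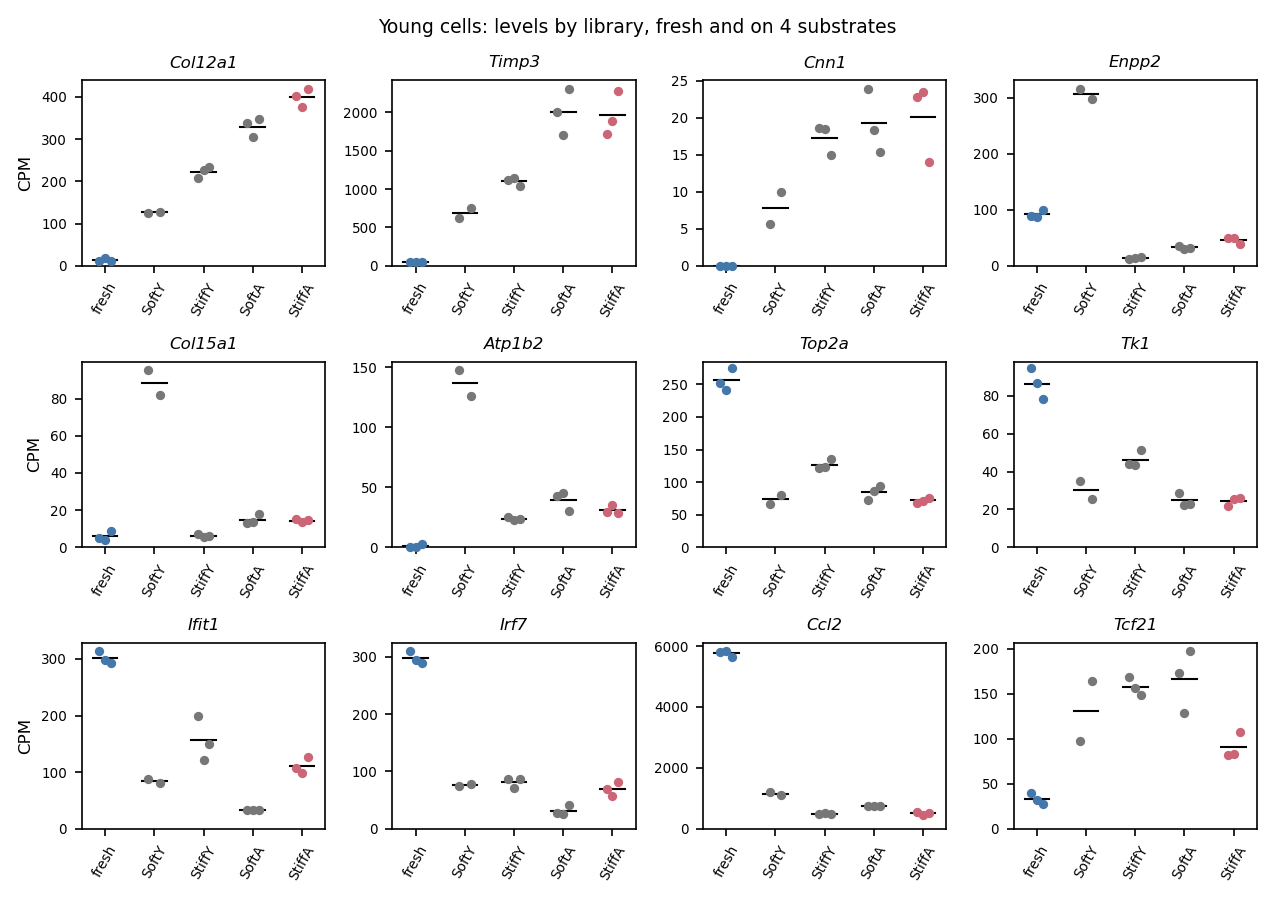
Each panel is 1 gene, with CPM on the vertical axis starting at 0, single libraries as points, group means as bars, fresh young cells in blue, StiffA in red and the other substrates in grey. Col12a1 runs from 125 to 127 CPM on SoftY to 377 to 420 CPM on StiffA, Enpp2 and Col15a1 peak on SoftY, and Ifit1 is lowest on SoftA.

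The culture fold on StiffA was also compared with that of aged cells, as the difference between young and aged log2 folds. It passed in 1888 genes, 14% of those tested, with 951 differences above 0 and 937 below. Of the 27 immediate early genes 23 had a higher fold in young cells and none a lower one. Nr4a1 read 233, 234 and 192 CPM in fresh aged cells and 9.04, 6.82 and 13.3 CPM in aged cells on StiffA, so it was lower in cultured aged cells and higher in cultured young cells. The difference of log2 folds was 7.68 ± 0.25 (adjusted p = 2.7e-20, edgeR's quasi-likelihood test). Egr1 read 692, 713 and 690 CPM in fresh aged cells and 123, 111 and 109 CPM in aged cells on StiffA, a difference of 4.88 ± 0.24. The median log2 fold of the list was 0.71 in young and -2.12 in aged cells.

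All 30 mitosis genes had a lower fold in young than in aged cells, with list medians of -1.49 and 0.59. Top2a read 61.8, 97.4 and 67.3 CPM in fresh aged cells and 101, 106 and 109 CPM in aged cells on StiffA, where fresh young cells stood at 241 to 275 CPM. DNA replication genes had a lower fold in young cells in 22 of 31, with medians of -2.05 and -0.88. Of the interferon-stimulated genes 23 of 37 had a higher fold in young cells and 1 a lower one, with medians of -1.44 and -2.27. For cytokines 11 of 30 were higher and 1 lower, with medians of -2.70 and -4.27. Of the 8 fibrillar collagens 4 had a lower fold in young cells and none a higher one, with medians of 2.57 and 3.17.

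**Figure D5:**
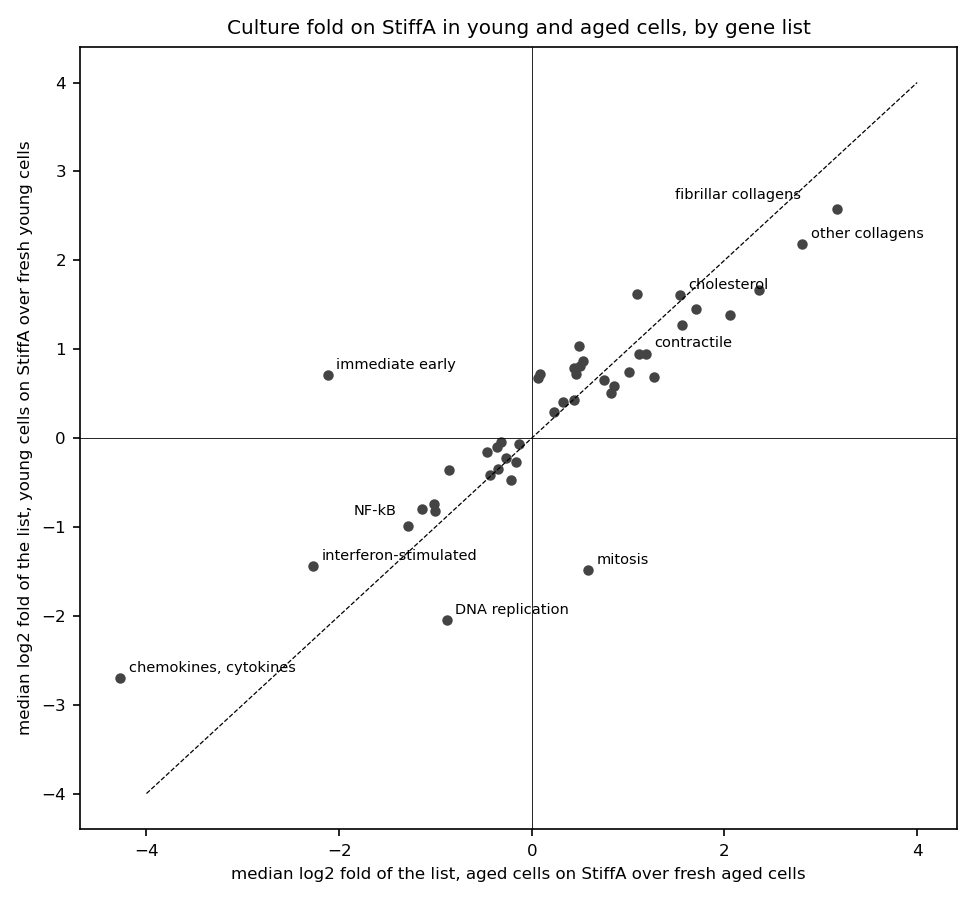
Each point is a gene list, placed by its median log2 fold of StiffA over fresh in aged cells (horizontal axis) and in young cells (vertical axis), with the dashed line where both are equal. Immediate early genes (-2.12 aged, 0.71 young) and mitosis genes (0.59 aged, -1.49 young) are the labelled lists whose medians have opposite signs.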

How the data were processed

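The authors deposited 1 table of gene counts for all 29 libraries of mouse cardiac fibroblasts, raw reads per gene from HTSeq per the labels, and the submitters' processing notes name STAR 2.7.8a and mm39. For the strand setting, the HTSeq version and the annotation, the sources used here give nothing. Counts were fitted in edgeR 4.0.16 (R 4.3.3) with TMM scaling, filterByExpr and a quasi-likelihood test over all 29 libraries in 10 groups, and p-values were adjusted by Benjamini-Hochberg over 13523 genes. The test was also run on simulated data in which few genes differed, so that run cannot check it under a difference as broad as the one here. DESeq2 1.42.0, other scaling, no filter, a replicate block, only the 6 libraries, a 2-fold minimum and leaving out single libraries were tried as alternatives. Totals of the 29 libraries were 1192668 to 3275089 counts, and replicate pairs among the 6 libraries differed by more than counting noise.

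Named genes were the 10 largest calls in each direction with non-overlapping groups (not asked of the age difference) and a mean of at least 10 CPM, without provisional names or pseudogenes, and for StiffA over fresh up to 6 changed members of each list, up to 3 in its minority direction, up to 2 high members that did not pass, and 8 fixed genes. Other genes that complete a count of 5 or fewer were chosen after their values were seen. The members and the 54 lists, with 1028 of 1218 genes tested, were chosen with earlier results of these data known. Lists can share genes. RefSeq promoters and GENCODE M21 models are of GRCm38 and were not mixed with mm39 coordinates.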

Additional observations from a re-analysis of the deposited data

Results flagged for a closer look

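The culture fold on StiffA differed between young and aged cells in many genes, tested as the difference between the 2 log2 folds in edgeR's quasi-likelihood test. It was above 0 in 951 genes and below 0 in 937.

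The largest differences above 0 were 7.68 for Nr4a1, 6.14 for the collagenase gene Mmp13, 5.96 for Plk3, 5.41 for Egr2, 5.22 for Ptgs2 (the inducible cyclooxygenase), 4.88 for Egr1, 4.47 for Cxcl2, 4.35 for Ano3, 3.83 for Star (a cholesterol carrier of steroid synthesis) and 3.68 for Mmp10. Mmp13 read 2544, 2625 and 2572 CPM in fresh aged cells against 69.8, 65.8 and 70.0 CPM in fresh young cells, and at most 0.479 CPM in either group on StiffA, so its difference rests on few counts. It lost its call without young StiffA library 1 or 2 or aged StiffA library 1 or 2 (adjusted p up to 0.18, edgeR's quasi-likelihood test), as did Mmp10 without young StiffA library 1 (0.74). Ptgs2 read 403, 475 and 462 CPM in fresh aged cells and 9.04, 7.54 and 11.8 CPM in aged cells on StiffA, while young cells stood at 23.1, 26.6 and 25.8 CPM fresh and 24.1, 17.3 and 17.4 CPM on StiffA. Plk3 was uneven within young groups, at 35.0, 58.5 and 2.54 CPM on StiffA. Ano3 had 1 count in the fresh young libraries together and 246 in young cells on StiffA, so its difference depends on the prior count.

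The largest differences below 0 were -5.80 for Col11a1, -5.33 for Kif26b, -4.02 for Scel, -3.75 for Ccn5, -3.65 for Spon2, -3.60 for Notch3, -3.18 for Ankle1, -2.97 for Nsl1, -2.93 for Tmem119 and -2.88 for Cdc25c, a phosphatase of mitotic entry. Col11a1, Kif26b and Scel had 0 counts in the fresh aged libraries, so their differences depend on the prior count. Spon2 read 15.4, 15.4 and 13.8 CPM in fresh aged cells and 290, 298 and 298 CPM in aged cells on StiffA, against 239, 238 and 244 CPM and 388, 375 and 378 CPM in young cells. Ccn5 read 2.07, 3.33 and 2.36 CPM in fresh aged cells and 2849, 2806 and 2649 CPM in aged cells on StiffA.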

How the results depend on the processing

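No called gene named here changed direction under an alternative. The median over all genes, near 0, moved from -0.02 to 0.02 without fresh library 1 and 0.03 with only the 6 libraries, and list medians near 0 (such as lysosome genes, -0.04 to 0.01) changed sign too. For StiffA over fresh, asking also for a 2-fold difference gave 1730 higher and 1664 lower genes, and all other counts, and those of the age difference, stayed within 1.5 times of the reported ones, at 2907 to 3062 higher and 2967 to 3042 lower without any 1 library. Against SoftY the counts were 166 to 339 higher and 197 to 260 lower with 1 library left out. Against StiffY they were 84 and 40 with no filter on low counts, 15 to 32 and 3 to 21 with 1 library left out, and DESeq2 called 31 lower. Against SoftA they were 51 and 41 with no filter, 44 and 30 by DESeq2, and 11 to 22 and 2 to 38 with 1 library left out. The cause of these moves was not tested.

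The replicate numbers share no stated animal or batch, and deviations of same-numbered fresh and StiffA libraries correlated at 0.0883, -0.0695 and 0.1551, so the numbers were not taken to pair samples, and not every library correlated best with its own number. With a replicate block StiffA over fresh had 3297 higher and 3501 lower, StiffA over StiffY 64 and 36, and StiffA over SoftA 23 lower.

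Calls held under every alternative for 322 of 343 named genes of StiffA over fresh, 11 of 20 against SoftY, 5 of 20 against StiffY, 7 of 20 against SoftA and 17 of 20 of the age difference. Nr4a2 lost its call only with fresh library 1 and StiffA library 3 both left out, an alternative chosen after seeing the data (adjusted p = 0.11, edgeR's quasi-likelihood test). For the age difference the calls lost were Mmp10, Mmp13 and Scel. Depth limits genes near 1 CPM, where a library held 2 or 3 counts.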

Other observations

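Some signalling lists of the heart were not described above. Of 14 tested angiotensin, endothelin and natriuretic genes 7 rose and 4 fell in young cells on StiffA over fresh (23.5% and 24.9% of all genes). Edn1, the endothelin ligand, rose from 5.16, 7.51 and 7.05 CPM to 28.3, 29.2 and 38.9 CPM, while its receptor gene Ednrb fell from 25.8, 29.5 and 29.6 CPM to 4.99, 9.11 and 5.50 CPM. Ace, the angiotensin-converting enzyme, rose from 3.44, 4.04 and 6.11 CPM to 23.7, 23.5 and 22.4 CPM. The sphingosine 1-phosphate receptor gene S1pr1 fell from 92.2, 97.3 and 86.0 CPM to 5.82, 9.59 and 8.04 CPM. No library of 1 group overlapped the other in these genes.

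Of 11 tested prostaglandin genes 5 fell and 2 rose (24.9% and 23.5% of all genes), or 1 rose without fresh library 1 and StiffA library 3. The terminal synthase Ptges fell from 56.1, 43.0 and 54.0 CPM to 6.66, 16.8 and 12.3 CPM, and the receptor gene Ptger4 rose from 15.1, 12.4 and 11.7 CPM to 56.2, 59.5 and 58.8 CPM. Ptgs2 had a log2 fold of -0.36 ± 0.23 and did not pass. Among chondro-osteogenic genes 6 of 11 tested rose and 2 fell (23.5% and 24.9% of all genes). Sox9, the cartilage transcription factor, rose from 156, 176 and 162 CPM to 1387, 1387 and 1348 CPM, and the alkaline phosphatase Alpl fell by 2.82 ± 0.19 on the log2 scale. Upk3b, a mesothelial marker, rose from 0, 1.73 and 0.94 CPM to 33.3, 24 and 25 CPM, and the retinoic acid enzyme Aldh1a1 from 68.5, 71.0 and 68.6 CPM to 639, 671 and 649 CPM.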
